A study of Mus musculus with 2 samples.

Results

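*Txnip*, *Arrdc4*, the glucose transporter genes *Slc2a1* and *Slc2a3*, the hexokinase genes *Hk1* and *Hk2*, and *Ldha*, *Aldoa*, *Eno1* and *Gapdh* of later glycolysis were followed in the non-polyadenylated (NPA) RNA of mouse ESCs and NPCs. These 10 genes, of 37273 in GENCODE release M1 on the mm9 genome, were chosen for their place in glucose use and on earlier counts of the same ESC and NPC libraries, so their ratios between the libraries are a description and carry no test. The ESCs were of the male R1 line at passage 18, grown on mitomycin-treated mouse embryonic fibroblasts in DMEM with 15% serum, sodium pyruvate and 1000 U/ml of LIF. The NPCs came from the same line, which spent 4 days as embryoid bodies without LIF, was replated on poly-L-ornithine and fibronectin in DMEM/F12 with insulin, transferrin, selenium and fibronectin, and was gathered on day 7. Oligo(dT) beads had taken poly(A) RNA out of both samples and ribosomal RNA was removed afterwards, so what was read is what those steps left behind, with 1 strand-specific library per cell type. With no replicate library, every ratio compares these libraries and every interval covers counting error only. Medium, serum, feeder cells and cell type changed together and cannot be told apart, nor can fewer cells of a type from less RNA per cell. The share of each mRNA that poly(A) depletion left behind was not measured here and may differ between the libraries. The ratios therefore do not stand for the total RNA of a gene.

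Glucose enters cells through GLUT1 (*Slc2a1*) and GLUT3 (*Slc2a3*), is trapped as glucose 6-phosphate by hexokinase, and is broken down to pyruvate, which lactate dehydrogenase turns into lactate. TXNIP is an arrestin-like protein that binds thioredoxin and slows glucose uptake by drawing GLUT1 off the cell surface, and its gene is switched on by sugar phosphates through the MondoA and ChREBP factors. ARRDC4, its nearest relative among the arrestin-like proteins, answers to the same factors, and pluripotent cells are known for rapid glycolysis.

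The libraries held 4271306 reads from ESCs and 4399729 from NPCs, so 1 read amounted to 0.234 and 0.227 in reads-per-million (RPM) units, by the total of each library. Over all genes with at least 10 reads in both libraries together, 13.3% were over 2-fold higher in ESCs and 25.5% in NPCs. Of the 10 pluripotency markers 8 were over 2-fold higher in ESCs and 0 in NPCs, with *Pou5f1* at 2623 and 724 reads. Neural markers were sparse in both, 197 reads over 8 genes in ESCs and 289 in NPCs. Of the 4 with at least 10 reads 2 were over 2-fold higher in NPCs, *Sox11* (18 and 60 reads) and *Pax6* (1 and 12), beside *Nes* (66 and 121) and *Tubb3* (109 and 87), while *Dcx* (2 and 3) and *Fabp7* (0 and 2) were near 0 in both. All 12 endoderm markers were over 2-fold higher in NPCs, from 807 RPM together in ESCs to 15434 RPM in NPCs, among them *Gata6* (8 and 459 reads), *Sox17* (8 and 383) and *Lama1* (427 and 10346). Fibroblast markers, which the feeder layer could bring in, summed to 64.9 and 62.3 RPM, with *Lum* at 0 in both, which allows up to 3 reads. Their members went both ways, with *Thy1* (79 and 12 reads) and *Pdgfrb* (93 and 21) higher in ESCs and *Col1a2* (51 and 165) higher in NPCs. The part of these cells in the results given here was not tested. Genes with 10 reads or more in sum numbered 14859, and the middle value of their log2 ratios (NPC over ESC) was 0.34. Ratios of members are also given with that shift taken off.

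Scaled to RPM, 9 of the 10 members were higher in ESCs, as were 37.1% of all genes tested. Over 2-fold higher in ESCs were 6 of the 10, where the share of all genes was 13.3%, and 0 were over 2-fold higher in NPCs, where it was 25.5%. The members were chosen on this contrast, so nothing is read from these counts. Their median log2 ratio was -1.17, and -1.51 with the shift of all genes taken off. The 95% interval of the ratio of NPC to ESC lay below 1 for 7 members, held 1 for *Arrdc4* and *Slc2a1*, and lay above 1 for *Slc2a3*. Strand was kept well, with 10 antisense reads beside 38311 sense reads over the exons of all members.

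**Figure D1:**
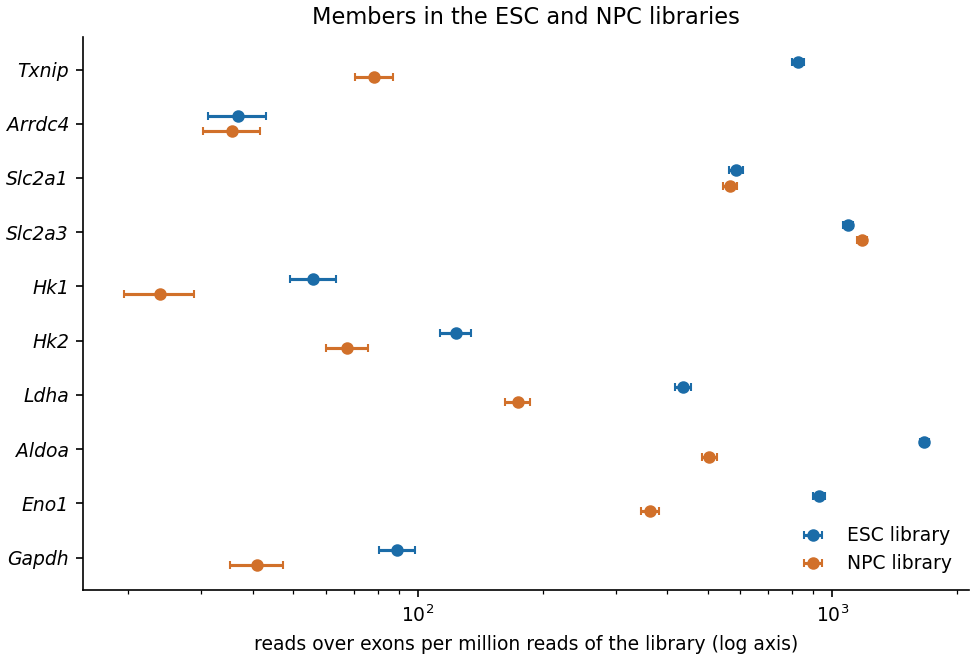
Reads over the exons of each member, in RPM on a log axis, for the ESC library (blue) and the NPC library (orange), with exact Poisson 95% intervals for counting error. The pair of points is far apart for Txnip, from 828 to 78.4 RPM, and nearly coincides for Arrdc4, Slc2a1 and Slc2a3.

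*Txnip* stood apart from the other members. It lies on the plus strand at chr3:96361880-96365806 (mm9) and had 3537 reads in ESCs (95% interval 3421 to 3656) and 345 in NPCs (310 to 383). That is 828 and 78.4 RPM, or 273 and 25.9 RPM per kb of exon (RPKM), a level 10.6-fold higher in ESCs (9.45 to 11.8). The log2 ratio was -3.40, and -3.74 with the shift taken off. Only 0.686% of the genes tested had a lower ratio, which is a description since *Txnip* was chosen on this contrast. Ranked by reads among protein-coding genes, *Txnip* was at place 45 in ESCs and at place 2210 in NPCs. Its sequence has no exact copy elsewhere, since 100% of the 48 nt windows of its exons occur once in mm9 and 0 reads matching its transcripts were placed at another locus. The lincRNA gene *Gm15441* covers the whole locus on the opposite strand, where 1 read fell over the *Txnip* exons in ESCs and 0 in NPCs.

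The coding start with the most reads, in exon 5 at chr3:96363634-96363681 (mm9, plus strand), shows how far repeated starts weigh on this gene. Its 48 nt occur once in mm9 and were read 136 times in ESCs and 6 times in NPCs.
Txnip exon 5: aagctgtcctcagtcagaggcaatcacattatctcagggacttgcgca
In ESCs the 3537 reads began at 654 positions, or 5.41 reads per position, and in NPCs the 345 reads began at 190, or 1.82 per position. Counted once per start, the log2 ratio of *Txnip* was -2.05. Abundant fragments and copies made in the 15 PCR cycles cannot be told apart in these files.

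The difference ran along the whole transcript. All 8 exons of the longest coding transcript, of 2827 nt, had more reads in ESCs. The smallest ratio was in exon 4 (76 and 12 reads, 6.52-fold, 3.53 to 13.2) and the largest in exon 7 (440 and 14 reads, 32.4-fold, 19.1 to 59.7). Exon 3 was thinly covered, with 23 reads and 1. The coding part fell from 1868 to 172 reads, 11.2-fold higher in ESCs (9.56 to 13.2), the 3′ untranslated part from 1440 to 142, 10.4-fold (8.79 to 12.5), and the 5′ untranslated part from 219 to 26, 8.68-fold (5.76 to 13.6). These intervals overlap one another. With the transcript cut into 3 segments of equal length, the 5′ segment held 22.4% of the reads in ESCs (21.1 to 23.8%) and 33.2% in NPCs (28.2 to 38.5%). With each start counted once these shares were 26.8% (23.4 to 30.4%) and 30.3% (23.7 to 37.4%), and their intervals overlap. The introns, 896 nt in all, had 23 reads in ESCs and 7 in NPCs, or 25.7 and 7.81 per kb against 1167 and 114 per kb of exon.

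Ahead of the *Txnip* start, the RefSeq promoter window holds a match to the paired E-box layout through which carbohydrate response factors are known to bind. The search took 2 copies of CACGTG spaced by 5 bases, with at most 2 mismatches over the 12 bases, a pattern that reads the same on both strands. The promoter windows, taken by RefSeq on GRCm38.p6, run from 250 bases before to 50 after the start. The pair was found in 1 of the 15 windows of the 9 members that have any, that of *Txnip*, and in 0.953% of all 32851 windows. It spans bases 85 to 69 before the start, with 2 mismatches. The bases upstream of the start are printed for *Txnip* and for *Arrdc4*, with the E-boxes in capitals, as located by exact match on mm9 at chr3:96361630-96361879 (plus strand) and chr7:75894125-75894374 (minus strand).
Txnip promoter: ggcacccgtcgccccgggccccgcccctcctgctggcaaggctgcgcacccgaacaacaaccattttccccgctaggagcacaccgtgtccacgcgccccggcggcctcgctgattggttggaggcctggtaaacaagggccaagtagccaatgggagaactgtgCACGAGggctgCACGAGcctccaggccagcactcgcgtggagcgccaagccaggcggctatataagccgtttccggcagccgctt
Arrdc4 promoter: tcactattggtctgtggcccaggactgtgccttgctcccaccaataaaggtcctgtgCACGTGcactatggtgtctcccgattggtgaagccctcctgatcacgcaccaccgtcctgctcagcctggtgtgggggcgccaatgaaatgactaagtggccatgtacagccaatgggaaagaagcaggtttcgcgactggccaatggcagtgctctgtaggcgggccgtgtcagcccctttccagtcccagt
The *Arrdc4* window has no such pair but 1 exact CACGTG, starting 193 bases before the start. At least 1 CACGTG was present in 7.15% of all windows and, among the members, also in a window of *Ldha*, which has 2. The hypoxia core ACGTG or GCGTG, on either strand and partly overlapping the E-box, was in 13 of the members' 15 windows and in 43.8% of all windows. Some windows of *Aldoa* overlap, as do some of *Eno1*, so a site there can count more than once. These matches describe letters in a window, and no binding was measured here. *Slc2a3* is not among the windows used.

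*Arrdc4* did not follow *Txnip* as a whole. At chr7:75881931-75894127 (mm9, minus strand) it had 157 reads in ESCs and 157 in NPCs (133 to 184 each), or 36.8 and 35.7 RPM, with 9.21 and 8.95 RPKM. The ratio of ESC to NPC was 1.03 (0.820 to 1.29), and the log2 ratio with the shift taken off was -0.38. Scaled by library total, the parts of the transcript moved in opposite directions, however. The coding part had 87 reads in ESCs and 44 in NPCs, 2.04-fold higher in ESCs (1.40 to 3.00), while the 3′ untranslated part had 70 and 112, with an ESC to NPC ratio of 0.644 (0.471 to 0.876). The log2 ratio (NPC over ESC) of the 3′ part, 0.64, lies above the shift of 0.34, but its counting interval holds that shift. The 5′ segment of the transcript held 54.8% of the reads in ESCs (46.6 to 62.7%) and 27.6% in NPCs (20.7 to 35.3%), intervals that do not overlap. With each start counted once they did overlap, at 47.4% (37.2 to 57.8%) and 28.4% (19.9 to 38.2%). Exons 3 and 5 carried most of the coding difference, with 24 and 10 reads in exon 3 and 45 and 18 in exon 5. These parts were picked out after their values were seen. Its exon sequence is fully unique in mm9, no other gene overlaps it on its strand, and 0 antisense reads fell on it in either library, which allows up to 3.

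**Figure D2:**
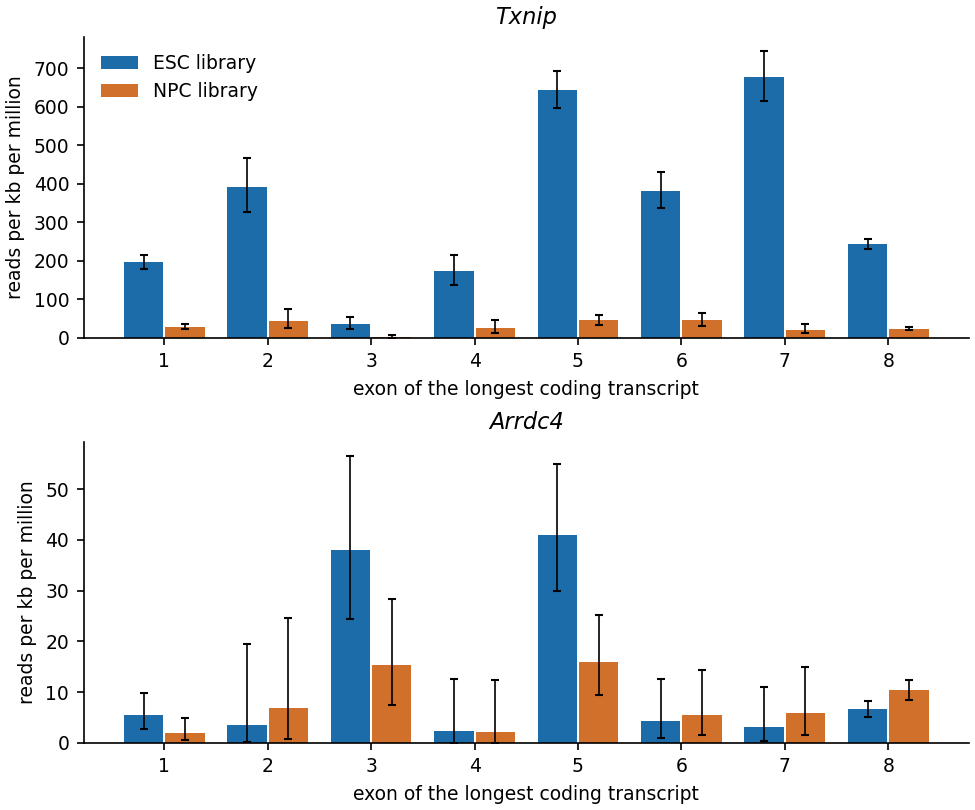
RPM per kb for each exon of the longest coding transcript of Txnip (upper) and Arrdc4 (lower), as bars from 0 with Poisson 95% intervals, blue for ESCs and orange for NPCs. Every Txnip exon is higher in ESCs, whereas Arrdc4 is higher in ESCs in exons 3 and 5 and higher in NPCs in exon 8, which holds its 3′ untranslated part.

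The uptake genes differed little between the libraries. *Slc2a1* (chr4:118781316-118809935, mm9, plus strand), encoding GLUT1, had 2499 reads in ESCs and 2494 in NPCs, or 205 and 199 RPKM, and a ratio of ESC to NPC of 1.03 (0.976 to 1.09). *Slc2a3* (chr6:122677827-122751658, minus strand), encoding GLUT3, had 4665 and 5193 reads, or 151 and 163 RPKM, and a ratio of 0.925 (0.889 to 0.963). Both were among the most read protein-coding genes, at places 79 and 83 for *Slc2a1* and 26 and 29 for *Slc2a3*. The small excess of *Slc2a3* in NPCs rests on the scaling by library total, since with the shift of all genes taken off its log2 ratio was -0.22 and that of *Slc2a1* was -0.38. By reads per kb of annotated exon, *Txnip* lay above both transporter genes in ESCs and below both in NPCs. The ESC order against *Slc2a1* rests on repeated starts, with 654 distinct starts over 3031 nt for *Txnip* and 641 over 2853 nt for *Slc2a1*. The annotated exons of *Slc2a3* sum to 7245 nt, against 3959 nt for its longest coding transcript, which lowers its value per kb.

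Within both transporter genes a smaller share of reads lay in the 5′ segment in NPCs, but not beyond counting error once repeated starts were set aside. The 5′ segment of *Slc2a1* had 807 reads in ESCs and 671 in NPCs, an ESC to NPC ratio of 1.24 (1.12 to 1.37), and its 3′ segment had 893 and 1017, a ratio of 0.904 (0.826 to 0.991). In *Slc2a3* the 5′ segment had 1347 and 1284 reads, a ratio of 1.08 (1.00 to 1.17), and the 3′ segment 1810 and 2281, a ratio of 0.817 (0.768 to 0.870). With each start counted once, the 5′ share was 31.2% (27.7 to 35.0%) and 29.6% (25.9 to 33.5%) in *Slc2a1*, and 32.2% (29.2 to 35.3%) and 30.4% (27.6 to 33.3%) in *Slc2a3*. The ratio of the coding part of *Slc2a3* was 1.12 (1.05 to 1.21) and that of its 3′ untranslated part 0.815 (0.774 to 0.857). These parts point opposite ways under scaling by library total only, since the log2 ratio of the 3′ part, 0.30, lies below the shift of 0.34. A single start of *Slc2a1* had 199 of its NPC reads, against 58 at its most read start in ESCs, and counted once per start its log2 ratio was -0.41 in place of -0.05. Over protein-coding genes with at least 100 reads in both libraries, the median share in the 5′ segment was 34.4% in ESCs (4475 genes) and 32.9% in NPCs (4476 genes), and 2 of the 10 members lay above it in each library. The members' median was 27.7% in ESCs and 26.0% in NPCs. These shares depend on the transcript taken, the longest coding one, and other transcripts were not tried. With it cut into 20 equal bins, the first had 0 reads in both libraries for *Arrdc4*, *Slc2a3*, *Hk1*, *Ldha*, *Eno1* and *Gapdh*. Most reads matching *Eno1* and *Gapdh* also lay at copies, which these shares leave out.

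Both hexokinase genes, which catalyse the first step after uptake, were higher in ESCs but had few reads. *Hk1* (chr10:61731603-61842656, minus strand) had 239 and 105 reads, or 6.56 and 2.80 RPKM, 2.34-fold higher in ESCs (1.86 to 2.98). *Hk2* (chr6:82675019-82724448, minus strand) had 527 and 297, or 20.7 and 11.3 RPKM, 1.83-fold (1.58 to 2.11). The coding parts of both were higher in ESCs with overlapping intervals, 1.90-fold (1.45 to 2.49) in *Hk1* and 2.00-fold (1.58 to 2.55) in *Hk2*. The 3′ untranslated part of *Hk1* had 66 and 14 reads, 4.86-fold higher in ESCs (2.70 to 9.36). Reads per start were 1.46 and 1.28 for *Hk1* and 1.78 and 1.54 for *Hk2*, and counted once per start the log2 ratios were -1.27 for *Hk1* and -0.89 for *Hk2*. For both, 0 matching reads lay at other loci.

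*Aldoa* and *Ldha* were higher in ESCs with most of their reads of unique sequence. *Aldoa* (chr7:133938748-133944265, minus strand), whose product splits fructose 1,6-bisphosphate, had 7118 reads in ESCs and 2223 in NPCs, or 605 and 183 RPKM, 3.30-fold higher in ESCs (3.14 to 3.46). By reads placed at the gene it was the most abundant member per kb of exon in ESCs, which leaves out the copies described further on. *Ldha* (chr7:54096845-54110997, plus strand), which makes lactate, had 1863 and 766 reads, or 146 and 58.4 RPKM, 2.51-fold (2.30 to 2.73). Unique 48 nt sequence made up 93.4% of the *Aldoa* reads in ESCs and 94.6% in NPCs, and 73.6% and 74.0% of the *Ldha* reads. Repeated starts weighed heavily on *Aldoa*, with 518 ESC reads at 1 start and 13.2 reads per start against 6.28 in NPCs, and its log2 ratio of -1.72 became -0.88 when each start was counted once. That of *Ldha* went from -1.32 to -0.86.

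At their own loci *Eno1* and *Gapdh* gave a poor account of their transcripts. *Eno1* (chr4:149610830-149622988, plus strand), the enolase gene, had 3964 and 1601 reads there, 2.55-fold higher in ESCs (2.41 to 2.70), of which only 15.4% and 16.7% were of unique sequence. *Gapdh* (chr6:125111871-125116485, minus strand), the gene of glyceraldehyde 3-phosphate dehydrogenase, had 381 and 180 reads, 2.18-fold (1.82 to 2.62), of which 39.1% and 33.3% were unique. This put *Gapdh* at 39.6 and 18.2 RPKM, below *Aldoa*, *Eno1* and *Ldha* in both libraries, although it is known as one of the most abundant mRNAs. Of the 48 nt windows of its annotated exons 49.6% occur once in mm9, against 78.7% for *Eno1*, 81.6% for *Ldha* and 92.8% for *Aldoa*.

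Reads identical to the spliced transcripts of these 4 genes lay at other loci, and in 0 cases for the other 6 members. For *Gapdh* they numbered 16494 in ESCs and 7296 in NPCs, 43.3 and 40.5 times the reads at the gene, over 82 other annotated genes and places with no annotated exon. For *Eno1* they numbered 21155 and 10576, for *Ldha* 939 and 341, and for *Aldoa* 639 and 168. With them added, *Gapdh* rose to 3951 and 1699 RPM and *Eno1* to 5881 and 2768 RPM. The direction stayed the same, with log2 ratios of -1.22 for *Gapdh*, -1.09 for *Eno1*, -1.38 for *Ldha* and -1.74 for *Aldoa*.

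Many of these reads crossed an exon junction, which a read placed whole on the genome can do at a copy without introns but not at the gene. There were 5296 such reads for *Gapdh* in ESCs and 2074 in NPCs, 14481 and 7850 for *Eno1*, 533 and 186 for *Ldha*, and 241 and 58 for *Aldoa*. A well-read junction window of *Gapdh*, *Ldha* and *Aldoa*, with at least 12 nt on each side of the junction, is printed here from the spliced mm9 exons, with the downstream exon in capitals, because each shows another way in which a mapped position misses the parent gene.
Gapdh exons 6 and 7: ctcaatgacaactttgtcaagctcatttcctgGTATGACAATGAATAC
Ldha exons 6 and 7: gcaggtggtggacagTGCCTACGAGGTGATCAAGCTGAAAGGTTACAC
Aldoa exons 4 and 5: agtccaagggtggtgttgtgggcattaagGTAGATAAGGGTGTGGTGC
The *Gapdh* window occurs 52 times in mm9 and was read 183 times in ESCs and 69 times in NPCs, over 47 places, most often at chr2:104132631-104132678 (plus strand) in *Gm13882* with 16 reads. The *Ldha* window occurs 0 times in mm9, yet 50 and 22 reads had exactly this sequence and were placed with mismatches, 67 of them at chr13:83972641-83972688 (plus strand) where no exon is annotated. The *Aldoa* window occurs once, at chr4:72513096-72513143 (minus strand) in *Aldoart1*, an aldolase gene without introns, and its 12 and 8 reads all lay there. A filter on unique sequence would therefore keep those *Aldoa* reads and give them to *Aldoart1*. Reads across a junction whose sequence occurs nowhere in mm9 numbered 159 and 59 for *Ldha*, 66 and 33 for *Gapdh*, 46 and 14 for *Aldoa*, and 1 and 1 for *Eno1*.

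Most of the displaced *Eno1* reads lay at a pair of copies. *Gm13699*, a pseudogene on chromosome 2, had 9985 matching reads in ESCs and 5223 in NPCs, and *Gm5506*, annotated as protein-coding and named after its values were seen, had 10437 and 5072. Of all reads over the exons of *Gm5506*, 94.8% in ESCs and 94.5% in NPCs were identical to an *Eno1* transcript. After *Gm13699*, the pseudogenes with the most matching reads were copies of *Gapdh*, *Gm12070* with 621 and 302 and *Gm10284* with 539 and 234. A copy that is itself transcribed without a differing base within the 48 nt cannot be told from its parent, and this was not tested.

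**Figure D3:**
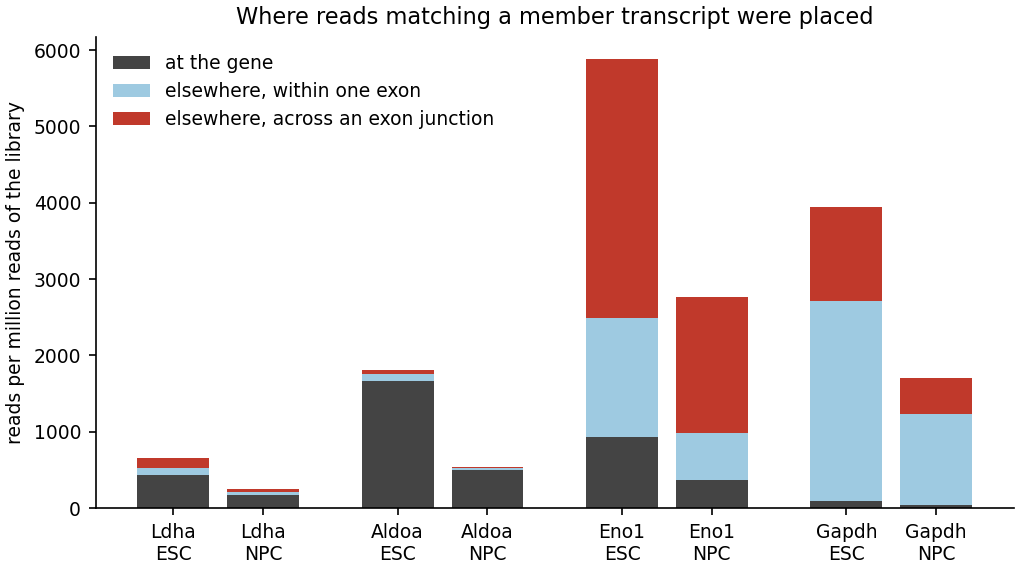
RPM at each gene (dark), and elsewhere in mm9 with a sequence identical to its spliced transcripts, within exons (light blue) or across an exon junction (red), as stacked bars for ESCs and NPCs. Gapdh and Eno1 are mostly placed away from the gene, while Aldoa is mostly at the gene.

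**Figure D4:**
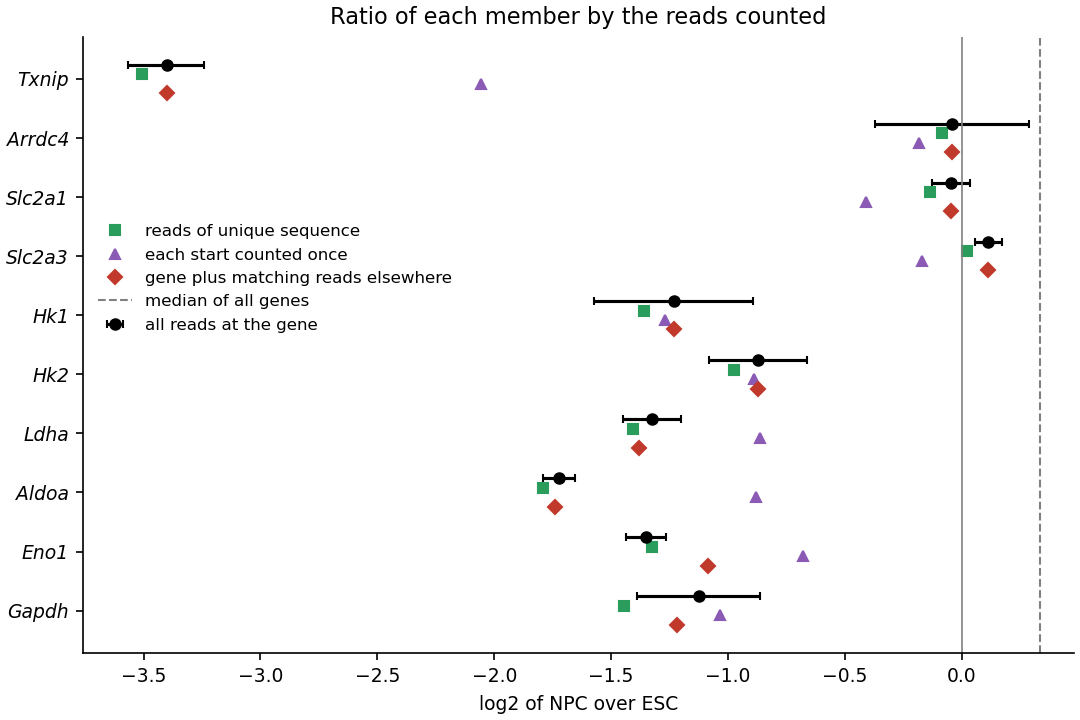
Log2 ratio of NPC to ESC for each member from all reads at the gene (black, with the 95% interval for counting error), reads of unique sequence (green squares), each start counted once (purple triangles) and the gene plus matching reads elsewhere (red diamonds). Counting starts once moves Txnip from -3.40 to -2.05, while the sign changes for Slc2a3 alone among the settings drawn. The dashed line marks the median of all genes, 0.34.

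The other enzymes of glycolysis were taken from a list of 20 genes, of which 13 had at least 10 reads. Of these 9 were over 2-fold higher in ESCs, 1 over 2-fold higher in NPCs and 3 within 2-fold, where 13.3% and 25.5% of all genes were past 2-fold in those directions. Their median log2 ratio was -1.39, beside 0.34 for all genes. Pyruvate kinase *Pkm2*, the enzyme of the last step, had 11368 reads in ESCs and 4275 in NPCs, 2.74-fold higher in ESCs (2.64 to 2.84). Phosphoglycerate kinase *Pgk1* had 3711 and 1199, 3.19-fold (2.99 to 3.41), and glucose 6-phosphate isomerase *Gpi1* had 1208 and 474, 2.63-fold (2.36 to 2.93). Only 154 and 75 of the *Pgk1* reads were of unique sequence, with a ratio of NPC to ESC of 0.444 (0.332 to 0.589). The steps with several genes were uneven. Among the phosphofructokinases, which set the pace of the pathway, *Pfkp* was 5.71-fold higher in ESCs (4.92 to 6.66) with 1131 and 204 reads, *Pfkl* 2.31-fold (2.08 to 2.57) with 1114 and 497, and *Pfkm* had 294 and 160 reads. The lactate dehydrogenase subunit gene *Ldhb* was 5.71-fold higher with 1569 and 283 reads, more than *Ldha*, and the aldolase *Aldoc* 12.3-fold (7.67 to 20.7) with 226 and 19 reads. *Tpi1* had 764 and 416 reads, *Pgam1* 2409 and 1356, of which 23 and 13 were of unique sequence, *Eno2* 27 and 10, and *Ldhc* 8 and 4. The exception in direction was the muscle enolase *Eno3*, with 10 reads in ESCs and 53 in NPCs, 5.15-fold higher in NPCs (2.59 to 11.3).

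**Figure D5:**
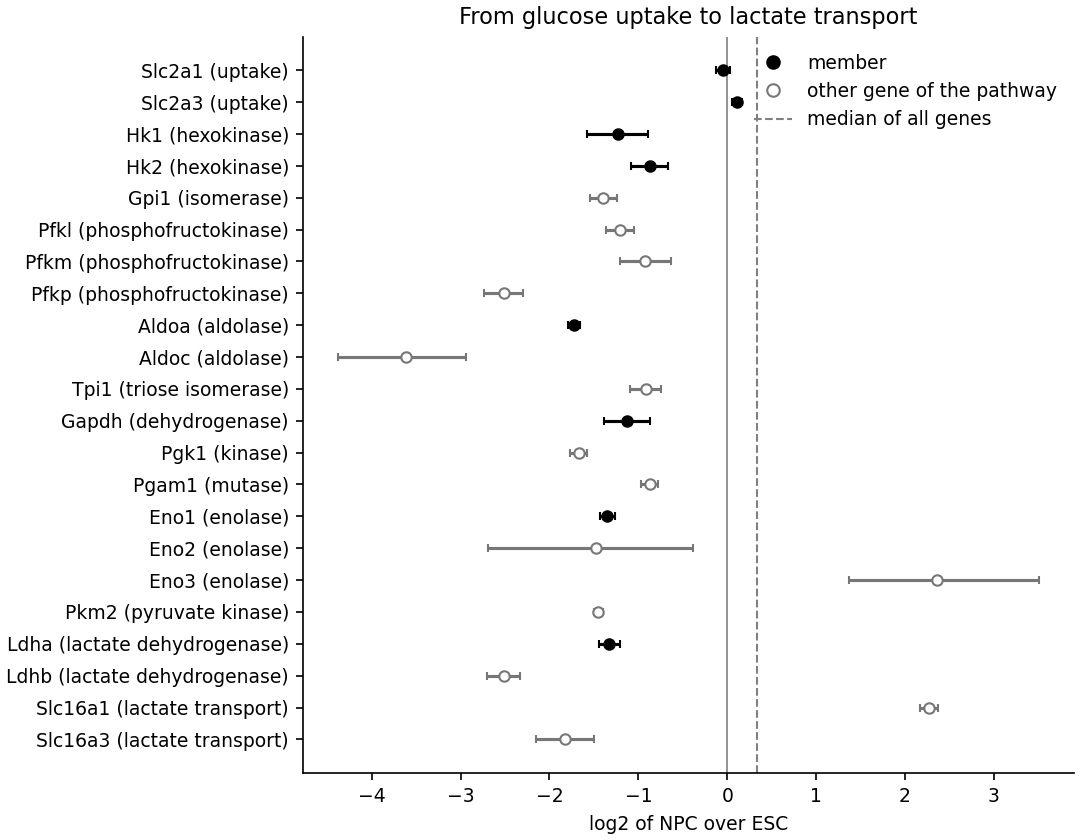
Log2 ratio of NPC to ESC, with 95% intervals for counting error, for genes from glucose uptake to lactate transport, filled for members and open for other genes. From hexokinase to lactate dehydrogenase all points but Eno3 lie below 0, the uptake genes lie near 0, and the transporters Slc16a1 and Slc16a3 lie on opposite sides.

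Shares past 2-fold in the lists that follow stand beside the same 13.3% and 25.5% of all genes. Lactate and pyruvate handling was mixed, with 3 of 13 genes over 2-fold higher in ESCs and 2 in NPCs. The lactate transporter *Slc16a1* had 944 reads in ESCs and 4698 in NPCs, 4.83-fold higher in NPCs (4.50 to 5.19), while *Slc16a3*, the exporter of glycolytic cells, had 360 and 105, 3.53-fold higher in ESCs (2.83 to 4.43). Of the kinases that inhibit pyruvate dehydrogenase, *Pdk1* (1197 and 479 reads) and *Pdk4* (137 and 21) were over 2-fold higher in ESCs, while the intervals of *Pdk2* (19 and 22) and *Pdk3* (174 and 164) held 1. Of 5 other glucose transporter genes with at least 10 reads 3 were over 2-fold higher in ESCs and 1 in NPCs, all with fewer than 70 reads in a library, for instance *Slc2a8* with 67 and 24 and *Slc2a4* with 27 and 6.

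Among the regulators around *Txnip*, 1 of 8 genes of E-box factors, those of glucose sensing included, was over 2-fold higher in ESCs and 2 in NPCs. *Mlxipl*, the gene of ChREBP, had 17 reads and 2. The gene of MondoA, *Mlxip*, went the other way with 138 and 259, 1.82-fold higher in NPCs (1.48 to 2.26), as did that of their shared partner, *Mlx*, with 88 and 147. *Myc* had 21 and 108, 4.99-fold higher in NPCs (3.11 to 8.39), and *Max* had 106 and 270, 2.47-fold (1.97 to 3.13). The related *Mycn*, with more reads than *Myc*, went the other way with 320 and 204, 1.62-fold higher in ESCs (1.35 to 1.94). Of 5 arrestin-like genes beside the members, *Arrdc2* alone passed 2-fold, with 45 and 12 reads. Of 7 genes of the thioredoxin system, to which TXNIP binds, *Txnrd3* was over 2-fold higher in ESCs (35 and 13 reads) and *Txnrd1* (221 and 530) and *Txnrd2* (7 and 19) in NPCs.

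Genes of the hypoxia response split both ways, with 5 of 13 over 2-fold higher in ESCs and 4 in NPCs. The list mixes genes of HIF, a factor of the glycolysis genes too, and of its oxygen sensors with genes that respond to HIF. *Bnip3* (249 and 59 reads), *Ddit4* (328 and 90) and *Ankrd37* (22 and 4) were higher in ESCs, and *Epas1*, the gene of HIF-2α, was 16.6-fold higher in NPCs (13.4 to 20.7) with 90 and 1535 reads. *Hif1a* itself had 604 and 1444. The others past 2-fold were *Egln3* (270 and 77) and *Vegfa* (443 and 209) in ESCs, and *Ndrg1* (145 and 498) and *Egln2* (47 and 99) in NPCs. Genes that respond to HIF were not counted apart from the rest.

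Counted by reads, the ratio of *Txnip* was shared by few abundant genes. *Txnip* was chosen on this contrast, so its rank is a description, and none was taken with each start counted once. Of 6556 protein-coding genes with at least 100 reads in a library 13 had a lower log2 ratio with 1 read added. The aldolase *Aldoc* (226 and 19 reads) was among these 13. The 5 nearest to *Txnip*, by the distance between log2 ratios over the pair of libraries, were *Ooep* (212 and 20 reads), *Adck3* (173 and 15), *Gfpt2* (348 and 30), *Adc* (194 and 20) and *Got1l1* (147 and 15). All 5 had fewer ESC reads than *Txnip*, with *Gfpt2* the most read among them.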

How the data were processed

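Both samples, R1 ESCs and the NPCs made from that line, gave RNA that was depleted of poly(A) and ribosomal RNA and sequenced strand-specifically on a SOLiD machine from 2 µg, with 15 PCR cycles and fragments of 150 to 250 bp. Reads had been aligned to mm9 with Bowtie, as the submitters' processing notes name it (version not given in the sources used here), with 1 placement kept for a read with several, and reads on mitochondrial, ribosomal or masked repeat sequence filtered out. The files deposited by the authors hold positions, strand and 48 nt of sequence per read, not counts, and reads were counted here. Intervals shorter than 48 nt made up 3.77% of ESC and 4.23% of NPC reads, for a reason not given in the sources used here. PCR reads carry no molecular identifiers, so intervals cover counting error only. Tiling arrays and poly(A)+ RNA were not analysed here.

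Reads on the strand of a gene overlapping its exons (GENCODE M1) by at least 1 base were counted, and scaled by library totals to RPM and by exon length to RPKM. A read was called unique when its 48 nt occur once on both strands of mm9, which held for 78.2% and 83.2% of reads. Reads placed elsewhere were matched exactly, on the sense strand, to spliced coding transcripts. Positions use the middle of a read in the longest coding transcript. Medians of lists add 1 read per library, and list genes needed at least 10 reads over both. Counts have exact Poisson, shares Clopper-Pearson and ratios conditional binomial 95% intervals. A count of 0 allows up to 3 reads. With 1 library per cell type no test was made. Alternatives counted unique reads, each start once, 5′ ends or unshared exons, scaled by the median of ratios or by coding reads, and changed the filter or the added read. Adding reads placed elsewhere to those at the gene was chosen after seeing the data.

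The members and lists were chosen with earlier results of these data known. Named are all members, all glycolysis enzymes with at least 10 reads, at most 4 genes per other list past 2-fold by size, the 5 genes nearest to *Txnip*, and the 3 pseudogenes with the most matching reads. *Hif1a*, *Egln2*, *Egln3*, *Ndrg1*, *Vegfa*, *Tigar*, *Ldhc*, *Gm5506*, *Gm13882*, *Aldoart1*, *Gm15441*, *Pdk2*, *Pdk3*, *Mlxip*, *Mlx*, *Mycn*, *Tkt*, *Taldo1* and the marker genes shown were named after their values were seen. Promoter windows are from RefSeq (GRCm38.p6) and matched 9 members by symbol. In a simulation of 14859 genes for the ESC and NPC comparison, with Poisson counts, 95.7% of 1000 intervals held the ratio put in. The intervals assume such counts and repeated starts were not simulated, so this checks the calculation only. Counting was tested on simulated data too. Software was matplotlib 3.10.9, pysam 0.24.0, SciPy 1.17.1 and NumPy 2.4.6 with numba 0.67.0, under Python 3.11.15.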

Additional observations from a re-analysis of the deposited data

How the results depend on the processing

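Each result was recomputed under the alternatives that apply to it. *Txnip* was lower in NPCs in all 9, with a log2 ratio of -3.40 as reported, -2.05 with each start counted once, -3.74 when scaled by the median of ratios and -3.73 when scaled by coding reads. With each start counted once 3 members were over 2-fold higher in ESCs in place of 6, and the cause was not tested. *Slc2a3* changed direction, to -0.17 with each start counted once, -0.23 under the median of ratios and -0.21 under coding reads. The last pair follows from scaling, which moves all genes alike. *Arrdc4* ranged from -0.38 to 0.0046, above 0 in 1 of its 9. The other 7 members were lower in NPCs in all 9, and between 8 and 10 members were higher in ESCs. With no filter on low counts 21.0% of genes were over 2-fold higher in ESCs in place of 13.3%, since genes with few reads enter. The median of the other glycolysis enzymes stayed between -1.73 and -0.95. No paired analysis was possible because there is 1 library per group. Genes with few reads, such as *Eno2*, *Eno3* and *Mlxipl*, have wide counting intervals, and no value here has a replicate library.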

Other observations

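Pathways that branch off glycolysis were mixed, beside 25.5% of all genes over 2-fold higher in NPCs and 13.3% in ESCs. Of 7 pentose phosphate genes 2 were over 2-fold higher in NPCs and 0 in ESCs, with a median log2 ratio of 0.60. *Rpia*, which interconverts pentose phosphates, went from 14 reads in ESCs to 58 in NPCs. *Pgd*, an NADPH-forming dehydrogenase, went from 212 to 470. The most read members were higher in ESCs within 2-fold, *Tkt* with 2303 and 1331 reads and *Taldo1* with 515 and 296, so the list summed to 779 RPM in ESCs and 592 in NPCs. Of 8 genes of gluconeogenesis and glycogen with at least 10 reads 3 were over 2-fold higher in NPCs and 0 in ESCs, the glycogen branching enzyme *Gbe1* (15 and 83 reads), *Ugp2* (69 and 266) and *Pck2* (189 and 418). In that list 4 genes were higher in ESCs and 4 in NPCs, with a median of 0.29. The PFKFB family and *Tigar*, 5 genes in all, set the level of a sugar phosphate that speeds glycolysis. Of these *Pfkfb2* (27 and 81 reads) and *Pfkfb4* (14 and 33) were over 2-fold higher in NPCs. The median log2 ratio of all genes was 0.34.

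Displaced reads were not limited to the members. Reads placed elsewhere that matched *Pgk1* transcripts numbered 3826 in ESCs and 1174 in NPCs, those matching *Pkm2* 3284 and 1405, and those matching *Pgam1* 1455 and 970.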
